A study of Mus musculus with 16 samples.

Results

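The 9 genes of epithelial sodium transport examined in mouse mammary organoids are 3 genes for subunits of the epithelial sodium channel (Scnn1a, Scnn1b and Scnn1g), 3 genes for serum and glucocorticoid regulated kinases (Sgk1, Sgk2 and Sgk3), and 3 genes for regulators of the channel (Nedd4l, Nr3c2 and Hsd11b2). These 9 genes, of 55487 in the deposited table, were matched by symbol. The set was chosen by the measured expression of Scnn1b, which differed between organoids with both mutations and organoids with the HER2 mutation alone. That contrast is therefore given as a description, with no test, and Scnn1b is tested only between PIK3CA mutant and WT organoids, whose samples the choice did not use.

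The epithelial sodium channel lets sodium enter a cell through its luminal membrane and is built from an alpha, a beta and a gamma subunit. SGK kinases act downstream of phosphoinositide 3-kinase, which produces the signal that lets PDK1 and mTORC2 activate them. SGK1 phosphorylates the ubiquitin ligase NEDD4-2 (gene Nedd4l), and so keeps it from removing the channel from the cell surface. Corticosteroids raise transcription of Sgk1 and of channel subunits through the mineralocorticoid receptor (gene Nr3c2) and the glucocorticoid receptor, and the enzyme encoded by Hsd11b2 inactivates glucocorticoids inside the cell. In the mammary gland, sodium channels and tight junctions help to keep milk low in sodium.

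RNA sequencing was done on 16 samples of organoids, multicellular structures grown from tissue cells in medium with epidermal growth factor and with medium conditioned with Rspo1 and Noggin. There were 3 WT samples, 4 with a PIK3CA mutation, 4 with a HER2 mutation and 5 double mutants that carried both. The title of the series names the alleles HER2V777L and PIK3CAH1047R, and the sample labels give the gene only. By the labels, WT organoids derive from normal and every mutant from tumor breast tissue, so genotype and tissue source cannot be told apart in a comparison with WT. The age and strain of the mice, the promoter of the mutant genes and the cells that recombined are not given in the sources used here. Nothing in the labels says whether samples of a genotype came from separate mice, so p-values measure the spread between these samples, which may be partly technical.

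Total counts ranged from 45545182 to 64168308 per sample. Erbb2, the mouse gene for HER2, had 145 to 188 CPM (counts per 1000000 counts of the library) in samples without the HER2 mutation. It had 2700 to 4630 CPM in HER2 mutant and 1500 to 2750 CPM in double mutant samples. Pik3ca had 75.9 to 85.7 CPM in WT, 91.6 to 111 in PIK3CA mutant, 61.4 to 74.1 in HER2 mutant and 109 to 122 in double mutant samples. Luminal and basal epithelial markers (10 and 8 genes) were present in every genotype, and the luminal markers summed to 2010 to 2360 CPM in WT, 3040 to 3540 in PIK3CA mutant, 1970 to 2660 in HER2 mutant and 2560 to 4390 in double mutant samples. The basal markers summed to 473 to 1020 CPM in WT, 502 to 1380 in PIK3CA mutant and 555 to 1020 in double mutant samples, and to 972, 260, 266 and 381 CPM in HER2 mutant replicates 1 to 4. Krt5, a basal keratin gene, was at 14.1 to 52 CPM in HER2 mutant samples, below every sample of the other genotypes (69 to 412 CPM). For every other basal marker HER2 mutant samples overlapped samples of other genotypes. Their means in HER2 mutants were below WT for all of these but Krt17 (40 against 12.3 CPM), and by little for Krt14 (207 against 211 CPM). Macrophage and other immune markers (8 genes) summed to 1020 to 3500 CPM in WT, 610 to 773 in PIK3CA mutant, 272 to 451 in HER2 mutant and 239 to 425 in double mutant samples. Cd14 alone had 492 to 600, 573 to 752, 123 to 372 and 183 to 403 CPM in that order of genotypes. It had the highest mean of this list in each mutant genotype. Lyz2, a macrophage gene, had 405 to 2650, 0.0413 to 7.84, 0.123 to 142 and 0.0389 to 0.337 CPM in the same order. Fibroblast markers (6 genes) summed to 325 to 1900 CPM in WT, 65.1 to 471 in PIK3CA mutant, 34 to 624 in HER2 mutant and 26.2 to 58 in double mutant samples. No marker of these lists was at 0 in all samples of a genotype.

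Levels of different genes can be compared only per length, so CPM was divided by exon length in kilobases. This length takes the exons of all annotated transcripts of a gene together, 14311 bases for Sgk3 and 2991 for Scnn1g. It can exceed that of the transcripts present, so the order of genes depends on the annotation. In WT organoids Sgk1 had the highest level, 57 ± 4.96 CPM per kilobase (SD, n = 3). Nedd4l followed with 13.2 ± 1.11 CPM per kilobase (SD, n = 3) and Nr3c2 with 8.63 ± 1.33 (SD, n = 3). Scnn1a had 5.67 ± 3.23 and Scnn1b 4.49 ± 1.83 CPM per kilobase (SD, n = 3), a difference smaller than their spread. Scnn1g, with 0.813 ± 0.344, and Sgk3, with 0.804 ± 0.12 CPM per kilobase (SD, n = 3), also lay within their spread. Hsd11b2 had 0.524 ± 0.0352 CPM per kilobase (SD, n = 3). Sgk2 was the lowest, with 0 to 4 counts in any of the 16 samples. WT organoids thus held transcripts of all 3 channel subunits, with the gamma subunit the scarcest of them.

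Scnn1g and Scnn1b are neighbours on chromosome 7 and are transcribed in the same direction, with 96.6 kb and no protein-coding gene between them (GENCODE M21, GRCm38). Scnn1g (ENSMUSG00000000216) spans 121734479 to 121768475 and Scnn1b (ENSMUSG00000030873) spans 121865038 to 121918514. Scnn1b overlaps Cog7 on the opposite strand, with no shared exon bases. Scnn1a (ENSMUSG00000030340) is apart from them on chromosome 6, 125320659 to 125344943. Their upstream sequences are shown because the levels of Scnn1b and Scnn1g moved together, and that of Sgk1 (ENSMUSG00000019970, chromosome 10, 21882184 to 21999903) because it holds a complete corticosteroid response element. Each is the 250 bases before a RefSeq start site (GRCm38.p6, plus strand), with all matches to the searched motifs in capitals. The windows are chr7:121864788-121865037 for Scnn1b, chr7:121734229-121734478 for Scnn1g and chr10:21993640-21993889 for Sgk1. Those of Scnn1b and Scnn1g overlap no annotated transcript, and that of Sgk1 lies in introns of longer Sgk1 transcripts and in no annotated exon.
Scnn1b: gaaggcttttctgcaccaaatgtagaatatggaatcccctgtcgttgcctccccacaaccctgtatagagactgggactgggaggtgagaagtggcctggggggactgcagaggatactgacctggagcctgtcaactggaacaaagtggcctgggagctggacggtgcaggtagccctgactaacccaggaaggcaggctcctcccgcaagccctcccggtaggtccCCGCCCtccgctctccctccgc
Scnn1g: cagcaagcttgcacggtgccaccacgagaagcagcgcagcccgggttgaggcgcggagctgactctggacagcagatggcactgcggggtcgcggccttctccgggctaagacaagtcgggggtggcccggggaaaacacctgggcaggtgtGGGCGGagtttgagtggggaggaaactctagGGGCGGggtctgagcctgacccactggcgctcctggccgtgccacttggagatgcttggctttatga
Sgk1: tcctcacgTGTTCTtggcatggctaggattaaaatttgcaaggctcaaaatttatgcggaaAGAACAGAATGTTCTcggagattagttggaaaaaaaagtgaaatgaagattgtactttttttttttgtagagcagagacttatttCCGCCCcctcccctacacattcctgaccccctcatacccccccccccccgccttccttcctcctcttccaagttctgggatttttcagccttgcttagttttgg

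The motifs, searched on both strands, were the response element of the glucocorticoid and mineralocorticoid receptors, its single arm (AGAACA, which the full element contains on both strands, its 2 copies facing each other across 3 bases), the forkhead element bound by FOXO factors (GTAAACA), the TATA box (TATAAA) and the GC box (GGGCGG). RefSeq windows were found for 4 of the 9 genes, Scnn1b, Scnn1g, Nr3c2 and Sgk1, the last with 6 start sites. The full response element was in 1 of the 6 Sgk1 windows, at chr10:21993701-21993715, which is 189 to 175 bases before that start site. Only 3 of all 32851 windows of this length held it, or 0.00913%. The single arm was in 3 of the 6 Sgk1 windows and in 16.1% of all windows. The Scnn1b window held 1 GC box and the Scnn1g window 2, a motif present in 32.7% of all windows. A match is a description of these letters and not of a site in use.

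Scnn1b encodes the beta subunit and was the gene through which the set was chosen. Its levels were 9.25, 8.87 and 17.4 CPM in WT replicates 1 to 3 and 6.11, 3.45, 4.52 and 3.75 CPM in PIK3CA mutant replicates 1 to 4. They were 19.5, 15.2, 10.1 and 26.2 CPM in HER2 mutant replicates 1 to 4. In double mutant replicates 1 to 5 they were 3.56, 1.03, 1.08, 1.83 and 1.79 CPM. All double mutant samples were below all HER2 mutant and all WT samples, and HER2 mutant samples overlapped WT samples. The highest double mutant sample lay just above the lowest PIK3CA mutant sample.

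Scnn1g, which encodes the gamma subunit, followed the same order at lower levels. It had 1.85, 1.82 and 3.62 CPM in WT and 0.827, 0.413, 0.753 and 0.5 CPM in PIK3CA mutant organoids, in the order of the replicates. HER2 mutant organoids had 8.26, 2.45, 2.85 and 26 CPM. Double mutant organoids had 0.496, 0.399, 0.0196, 0.24 and 0.156 CPM, from 1 to 28 counts. In each genotype the sample with the most Scnn1b was also the sample with the most Scnn1g: WT replicate 3, PIK3CA mutant replicate 1, HER2 mutant replicate 4 and double mutant replicate 1. Double mutant replicate 3, with its single Scnn1g count, stood apart from this relation.

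Scnn1a encodes the alpha subunit, without which the channel carries little current. Its levels were 38.6, 13.4 and 18.3 CPM in WT and 8.24, 11.3, 14.1 and 15.1 CPM in PIK3CA mutant organoids. HER2 mutant replicates ranged over 24.4, 230, 58.9 and 10.8 CPM. Double mutant organoids had 3.23, 5.43, 10.1, 5.95 and 5.89 CPM. The double mutant samples were again below all WT and all HER2 mutant samples, but the gap to HER2 mutant replicate 4, at 10.8 CPM, was small. The samples with the most Scnn1a were WT replicate 1, PIK3CA mutant replicate 4, HER2 mutant replicate 2 and double mutant replicate 3, none of which had the most Scnn1b.

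**Figure D1:**
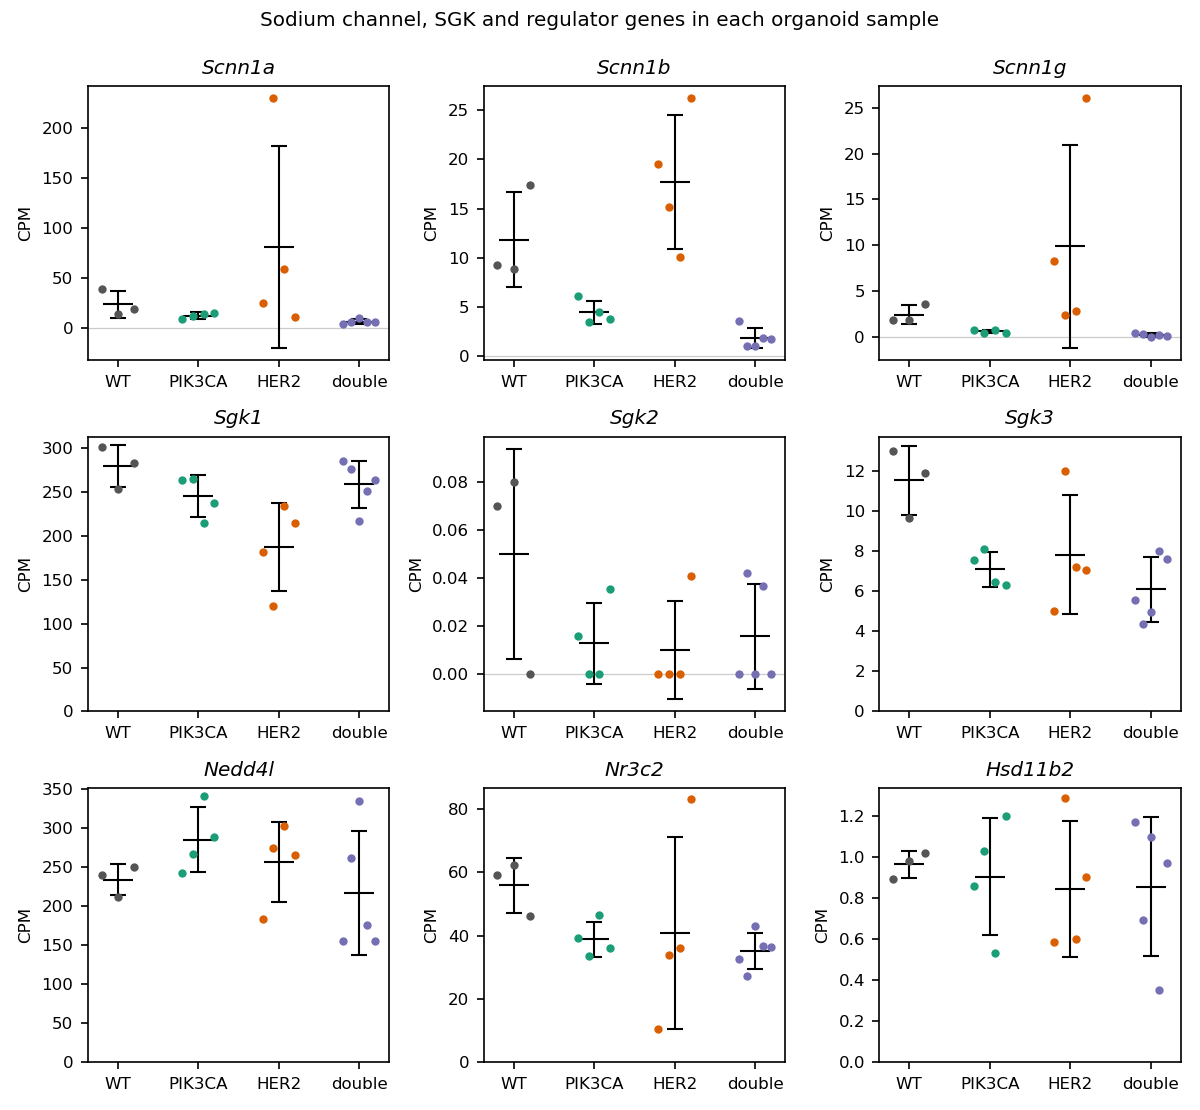
Level of each of the 9 genes in CPM (vertical axis, linear) in every organoid sample, by genotype (horizontal axis). Points are samples in the order of their replicate numbers, and black bars are the mean ± SD. The 3 channel subunits had their lowest means in double mutant samples, which overlapped PIK3CA mutant samples. Their SD in CPM was largest in HER2 mutant samples, where Scnn1a reached 230 CPM. The mean of Sgk1 was lowest in HER2 mutant samples, which lay at 120 to 234 CPM.

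Double mutant organoids were set against HER2 mutant organoids, the contrast that chose the genes, to describe the size of the difference. The log2 difference was -3.25 (SE 0.383) for Scnn1b, a level 9.54-fold lower in double mutants. It was -5.22 (SE 0.756) for Scnn1g and -3.73 (SE 0.672) for Scnn1a. HER2 mutant replicate 4 set much of the size for Scnn1g, with a log2 difference of -4.09 without it, and replicate 2 that for Scnn1a, with -2.36 without it. Among the 6 other genes, log2 differences ran from -0.36 for Sgk3 to 0.46 for Sgk1 in the 5 that could be fitted. Across all 24252 genes tested, 2.5% had an adjusted p under 0.05 in this contrast, 1.47% lower in double mutants, and in 4.59% all samples of a genotype lay above all samples of the other. Nothing is read from those shares here, since the contrast chose the set. Fibroblast markers summed to 36.2, 321, 34 and 624 CPM in HER2 mutant replicates 1 to 4 and to 26.2 to 58 CPM in double mutants, and basal markers to 972, 260, 266 and 381 CPM against 555 to 1020 CPM. Erbb2 also differed, with 2700 to 4630 CPM in HER2 mutants and 1500 to 2750 CPM in double mutants. The part of these cells and of the Erbb2 level in the subunit levels was not tested. In bulk samples, fewer cells of a type and less RNA per cell cannot be told apart.

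The per-length ratio of subunits also varied. In WT samples Scnn1b per kilobase was 5.45 to 5.67 times Scnn1g per kilobase, the narrowest range of the 4 genotypes. It was 6.82 to 9.49 times in PIK3CA mutant, 1.15 to 7.06 times in HER2 mutant and 2.93 to 62.5 times in double mutant samples, the last value resting on the single Scnn1g count of replicate 3. For Scnn1a over Scnn1b the ratio was 0.672 to 2.66 in WT, 0.86 to 2.56 in PIK3CA mutant, 0.264 to 9.63 in HER2 mutant and 0.577 to 5.97 in double mutant samples. The beta and gamma subunits thus kept a steadier ratio in WT and PIK3CA mutant organoids than the alpha and beta subunits did.

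**Figure D2:**
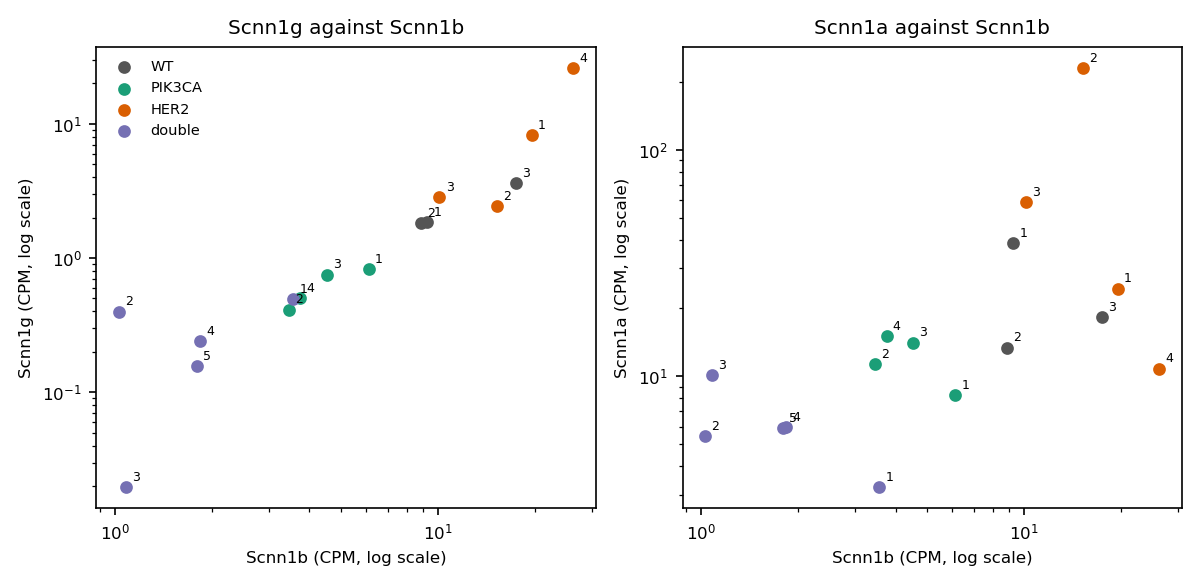
Scnn1g (left) and Scnn1a (right) against Scnn1b, each in CPM on logarithmic axes, with a point for each of the 16 samples coloured by genotype and numbered by replicate. Scnn1g followed Scnn1b over most samples, apart from double mutant replicate 3 at 0.0196 CPM, and Scnn1a followed it less closely, with HER2 mutant replicate 2 at 230 CPM and replicate 4 at 10.8 CPM.

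In the remaining comparisons, the 8 genes other than Scnn1b were tested with edgeR in a fit of all genes and samples, with p adjusted over all 24252 tested genes and a threshold of 0.05. Of the 8 genes, 7 passed the filter on low counts, and Sgk2 did not. The comparisons with WT share the 3 WT samples, and those with HER2 or double mutants use samples that also chose the set through Scnn1b. Scnn1g followed Scnn1b closely over the 16 samples (Pearson's r of log2 CPM 0.934), and Scnn1a less closely (0.594). Their tests with HER2 or double mutants are therefore not independent of that choice.

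Double mutant against WT organoids showed lower Scnn1g and Sgk3. Of the 7 genes, 2 passed the threshold, both lower, against 11.8% of all tested genes in either direction, 6.72% lower and 5.03% higher. Scnn1g fell by 3.20 on the log2 scale (SE 0.741, edgeR adjusted p 0.0105), with all 5 double mutant samples below all 3 WT samples. That call was lost without WT replicate 3 (log2 fold change -2.80, edgeR adjusted p 0.0636). Scnn1a had a log2 fold change of -1.94 (SE 0.671, edgeR adjusted p 0.0739), again with all double mutant samples below all WT samples. It passed the threshold with DESeq2 (adjusted p 0.0251) and in the edgeR fit of only these genotypes (0.0122). The other 13 alternatives did not pass. Without WT replicate 1 the log2 fold change of Scnn1a was -1.37 (edgeR adjusted p 0.32). For Scnn1b the log2 difference was -2.67 (SE 0.393), described without a test. All samples of a genotype lay above all of the other in 23% of all tested genes in this comparison. Double mutant samples also had lower macrophage and fibroblast marker sums than WT samples, 239 to 425 against 1020 to 3500 CPM and 26.2 to 58 against 325 to 1900 CPM, and the part of these cells in the subunit levels was not tested.

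HER2 mutant organoids had more Scnn1g and Scnn1a than PIK3CA mutant organoids. Of the 7 genes, 2 passed the threshold, both higher in HER2 mutants, against 4.41% of all tested genes in either direction 2.21% higher and 2.2% lower. Scnn1g rose by 3.98 on the log2 scale (SE 0.773, edgeR adjusted p 0.0104), and all 4 HER2 mutant samples were above all 4 PIK3CA mutant samples, a separation seen in 12.5% of all tested genes. It passed the threshold in every alternative run, with adjusted p from 1.17e-06 to 0.0451, but its size rested partly on HER2 mutant replicate 4, without which the log2 fold change was 2.85. Scnn1a rose by 2.73 (SE 0.702, edgeR adjusted p 0.0394), but its samples overlapped. The Scnn1a call was lost without HER2 mutant replicate 2 (log2 fold change 1.37, edgeR adjusted p 0.128), without any of the 4 PIK3CA mutant replicates (adjusted p 0.0816 to 0.114), with limma (0.126) and when the other genotypes were left out of the fit (0.122). Scnn1b was higher by a log2 difference of 1.99 (SE 0.395), given without a test. Cell type marker sums also differed between these genotypes. HER2 mutant samples had lower sums than PIK3CA mutant samples for luminal markers, 1970 to 2660 against 3040 to 3540 CPM, and for macrophage and other immune markers, 272 to 451 against 610 to 773 CPM. Of the immune list only Cd14 had a lower mean in HER2 mutants, 278 against 650 CPM. The other immune markers had higher means there, among them Lyz2 (50.2 against 2.84 CPM) and Csf1r (4.34 against 1.41 CPM), with overlapping samples for both. Basal sums were 260 to 381 CPM in 3 of 4 HER2 mutant samples and 972 in replicate 1, against 502 to 1380 CPM. Their part in this result was not tested.

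PIK3CA mutant organoids were compared with WT, the pair in which Scnn1b itself could be tested. Scnn1b had a log2 fold change of -1.41 (SE 0.411), a level 2.65-fold lower, with all 4 PIK3CA mutant samples below all 3 WT samples. The edgeR adjusted p was 0.0663, which did not pass the threshold, while DESeq2 gave 0.0177 and an edgeR fit of only these 7 samples gave 0.0122. Of the other 7 genes, 0 passed the threshold with edgeR, DESeq2 or limma, 2 had an unadjusted p under 0.05, and 4.52% of all tested genes passed with edgeR, 1.49% higher and 3.03% lower. The edgeR fit of only these 7 samples called 3 of them, Scnn1g (adjusted p 0.00757), Sgk3 (0.0157) and Nr3c2 (0.0333), along with 18.3% of all genes it tested. Scnn1g had a log2 fold change of -1.96 (SE 0.758, edgeR adjusted p 0.184) and Scnn1a of -0.94 (SE 0.708, edgeR adjusted p 0.56). Scnn1b, Scnn1g and Sgk3 were lower in all PIK3CA mutant than in all WT samples, a separation that 29.5% of all tested genes showed in either direction. The PIK3CA mutant samples also had lower macrophage marker sums than the WT samples, 610 to 773 against 1020 to 3500 CPM, and the part of those cells was not tested.

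For HER2 mutant against WT organoids, 0 of the 7 genes passed the threshold with edgeR, against 10.4% of all tested genes, 4.75% higher and 5.63% lower. An unadjusted p under 0.05 was found for 3 of them, DESeq2 called 2 (Scnn1g and Sgk1) beside 15.5% of all genes, and limma called 1 (Sgk1) beside 10.7%. Scnn1g had a log2 fold change of 2.02 (SE 0.781, edgeR adjusted p 0.113) and Scnn1a of 1.79 (SE 0.751, edgeR adjusted p 0.146). Their values without HER2 mutant replicates 4 and 2, in that order, were 0.89 and 0.42. Scnn1a passed the threshold without HER2 mutant replicate 4 (log2 fold change 2.16, edgeR adjusted p 0.0443).

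Double mutants set against PIK3CA mutants gave 0 calls among the 7 genes with edgeR, DESeq2 or limma, and 0 had an unadjusted p under 0.05. Of all tested genes 0.672% passed with edgeR, 0.309% higher and 0.363% lower. Samples of these genotypes overlapped for each of the 9 genes, and 7.92% of all tested genes had no overlap. The log2 fold changes of Scnn1g and Scnn1a were -1.24 (SE 0.711, edgeR adjusted p 0.52) and -0.99 (SE 0.629, edgeR adjusted p 0.575), and that of Scnn1b was -1.26 (SE 0.367), without a test. The interaction compares the double mutant change with both single-mutant changes added on the log2 scale. It contains the contrast that chose the set. It also contains the WT samples, by the labels the only ones from normal tissue. Non-additive mutations and tissue source therefore cannot be told apart in it. Of the 7 genes, 0 passed with edgeR and 3 had an unadjusted p under 0.05, DESeq2 called 1 and limma 0, and 1.06% of all tested genes passed with edgeR, 0.515% higher and 0.544% lower. The estimates were -3.26 for Scnn1g (SE 1.05, edgeR adjusted p 0.162) and -2.78 for Scnn1a (SE 0.976, edgeR adjusted p 0.202). Without HER2 mutant replicate 4 the Scnn1g estimate was -2.13, and without replicate 2 the Scnn1a estimate was -1.41.

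**Figure D3:**
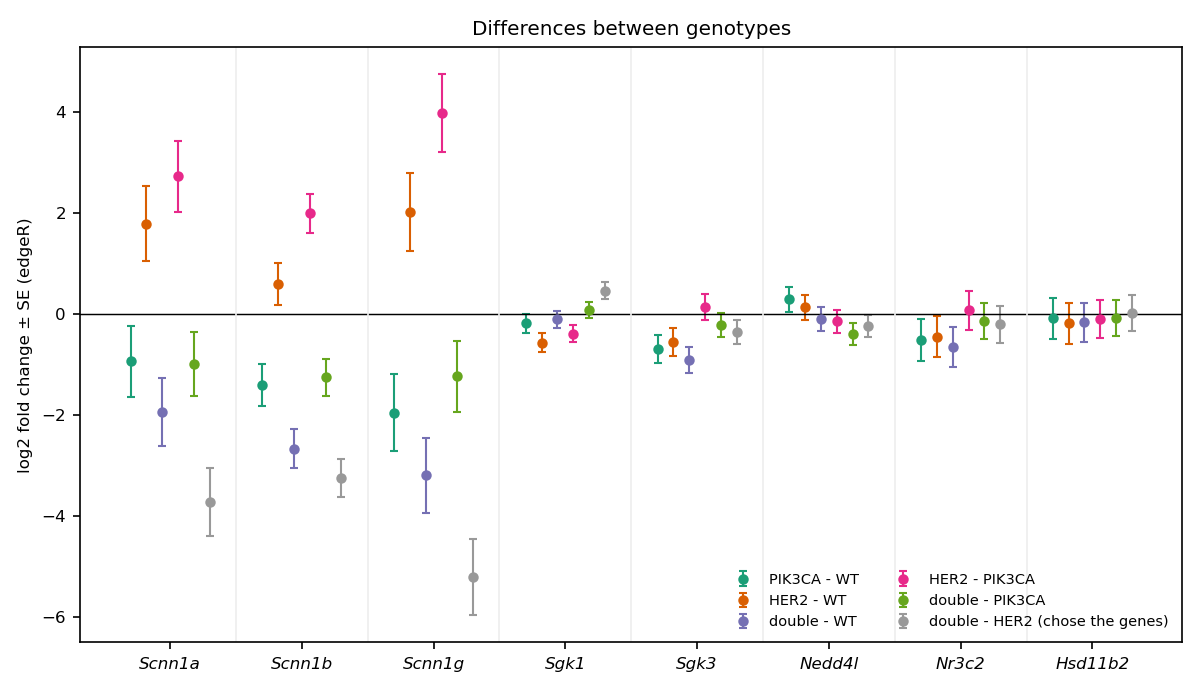
Log2 fold change ± SE (vertical axis, edgeR) of the 8 genes that could be fitted (horizontal axis) in the 6 pairs of genotypes, which share samples. The largest differences were in the channel subunits, from -5.22 to 3.98 for Scnn1g, and grey points mark the pair that chose the genes. The other 5 genes stayed between -0.92 and 0.46.

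The genes most like Scnn1b across the 16 samples were found by Pearson's r of log2 CPM among 11742 genes with a mean log2 CPM of at least 1. They were Adck5 (r 0.934, Spearman's rho 0.929), Plekhm3 (r 0.932, rho 0.903) and Fam20c (r 0.911, rho 0.906). Fam20c, a secretory pathway kinase, had mean levels of 29.3 CPM in WT, 8.77 in PIK3CA mutant, 24.7 in HER2 mutant and 4.62 in double mutant organoids. Scnn1g lay under the level minimum for this search, but its r with Scnn1b (0.934, rho 0.979) ranked 1 of 11743 when it was added. Scnn1a, with r 0.594 and rho 0.7, ranked 592. These values describe 16 samples that share 4 genotypes, and no test was made of them.

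Log2 differences were smaller for the SGK kinases than for the subunits. Sgk1, the corticosteroid-induced member of the family, had 302, 254 and 283 CPM in WT, 264, 265, 215 and 238 in PIK3CA mutant and 182, 120, 234 and 215 in HER2 mutant organoids. Double mutant organoids had 286, 277, 217, 252 and 264 CPM. All HER2 mutant samples were below all WT samples, as in 22.2% of all tested genes in either direction, and the other genotypes overlapped WT. The log2 fold change of Sgk1 in HER2 mutants against WT was -0.57 (SE 0.182, edgeR adjusted p 0.0561), just short of the threshold. It passed with DESeq2 (adjusted p 0.0389), with limma (0.0481), and without HER2 mutant replicate 3 (edgeR adjusted p 0.0331) or replicate 4 (0.0475). The other 10 of 14 alternatives did not pass, among them the edgeR fit of only these genotypes (adjusted p 0.213) and that without WT replicate 1 (0.189). Without HER2 mutant replicate 2, at 120 CPM, the log2 fold change was -0.41 (edgeR adjusted p 0.0795). In PIK3CA mutants and double mutants against WT the log2 fold changes were -0.19 (SE 0.182) and -0.11 (SE 0.174), with edgeR adjusted p 0.67 and 0.734. The genes most like Sgk1 were Tnfaip2 (r 0.915, rho 0.885), Cep85l (r 0.874, rho 0.588) and Sec62 (r 0.872, rho 0.65), over the same 16 samples.

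Sgk3, whose kinase carries a phosphoinositide-binding PX domain and sits on endosomes, had 13, 9.63 and 11.9 CPM in WT and 7.52, 8.08, 6.44 and 6.29 in PIK3CA mutant organoids. HER2 mutant organoids had 4.98, 12, 7.21 and 7.04 CPM and double mutant organoids 5.57, 4.34, 4.95, 8 and 7.58 CPM. The WT samples were above all PIK3CA and all double mutant samples, and HER2 mutant replicate 2 reached the WT range. Separation from WT in either direction was seen in 29.5% (PIK3CA) and 23% (double) of all tested genes. Sgk3 fell by 0.92 on the log2 scale from WT to double mutants (SE 0.261, edgeR adjusted p 0.0312). Of 8 fits with a replicate left out, 5 lost this call, those without WT replicate 1 (adjusted p 0.135) or 3 (0.12) or double mutant replicate 1 (0.0536), 2 (0.0688) or 3 (0.0621). Against WT, PIK3CA mutants had a log2 fold change of -0.70 (edgeR, SE 0.276, adjusted p 0.193) and HER2 mutants of -0.56 (edgeR, SE 0.276, adjusted p 0.216). Sgk1 per kilobase was 68 to 77 times Sgk3 per kilobase in WT samples. The ratio was 95.9 to 110 in PIK3CA mutant, 29.3 to 107 in HER2 mutant and 92 to 186 in double mutant samples. Sgk2 had at most 4 counts in a sample, with 4, 4 and 0 in WT and 0 to 2 in every mutant sample, so it was at about the 3 counts taken as the limit of detection and gets no fold change.

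None of the 3 regulators passed the threshold in the 6 tests of each, which were the 5 tested pairs and the interaction. Nedd4l (chromosome 18), the ubiquitin ligase that removes the channel, had 240, 212 and 250 CPM in WT, 243, 267, 341 and 289 in PIK3CA mutant and 183, 274, 303 and 266 in HER2 mutant organoids. Double mutant organoids had 156, 262, 334, 176 and 156 CPM, a wide spread in which replicates 2 and 3 stood above the others. Over the 6 pairs its log2 fold changes ran from -0.39 for double against PIK3CA mutants (SE 0.218, edgeR adjusted p 0.499) to 0.29 from WT to PIK3CA mutants (SE 0.251, edgeR adjusted p 0.632). Its interaction estimate was -0.53 (SE 0.333, edgeR adjusted p 0.532). Nedd4l shares 277 exon bases with an antisense gene, and without stated strandedness reads of both cannot be told apart.

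Nr3c2, the mineralocorticoid receptor gene, had 59.3, 62.3 and 46.1 CPM in WT and 39.2, 33.7, 46.5 and 36 CPM in PIK3CA mutant organoids. HER2 mutant organoids spread from 10.6 CPM in replicate 1 over 33.9 and 36.1 CPM to 83 CPM in replicate 4, the widest range of the 4 genotypes. Double mutant organoids had 32.8, 27.4, 43, 36.8 and 36.3 CPM, all below the WT samples, a separation seen in 23% of all tested genes in either direction. From WT to double mutants its log2 fold change was -0.66 (SE 0.39, edgeR adjusted p 0.295), which passed in the fit of only these 8 samples (adjusted p 0.0334) and in no other alternative run. Nr3c2 shares 247 exon bases with the antisense gene Gm10649. The genes most like it were Syt3 (r 0.919, rho 0.879), Dlg4 (r 0.908, rho 0.847) and Setd2 (r 0.889, rho 0.741).

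Hsd11b2 was scarce, with 19 to 67 counts per sample. It had 0.892 to 1.02 CPM in WT, 0.531 to 1.2 in PIK3CA mutant, 0.585 to 1.29 in HER2 mutant and 0.351 to 1.17 in double mutant organoids, so that every mutant genotype spanned the WT range. Its log2 fold changes lay between -0.19 and 0.02 over the 6 pairs, with SE from 0.357 to 0.406. Differences well under 1 log2 unit in either direction were therefore not resolved. No gene followed Hsd11b2 closely: the highest r were 0.628 for Lmcd1, 0.615 for Piezo2 and 0.614 for Rpl37rt.

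Other genes of the pathway were taken from 7 lists with 68 genes, of which 66 were tested. Against WT, 6 were higher and 1 lower in PIK3CA mutants, 8 higher and 5 lower in HER2 mutants, and 5 higher and 3 lower in double mutants. These are 10.6%, 19.7% and 12.1% of the tested list genes, beside 4.52%, 10.4% and 11.8% of all tested genes. In double against PIK3CA mutants 2 were lower and none higher, which is 3.03% of the list genes beside 0.672% of all tested genes. In HER2 against PIK3CA mutants 2 were higher and 7 lower, 13.6% of the list genes beside 4.41% of all. The 9 proteases that cleave the channel and their inhibitors held 1 called gene, higher, in HER2 mutants against WT and against PIK3CA mutants, and none in the other comparisons tested. That gene was Prss22, a serine protease of the tryptase type, with 1.74 ± 0.575 CPM in WT (SD, n = 3) and 11.4 ± 5.11 in HER2 mutant organoids (SD, n = 4), higher by 2.71 on the log2 scale (SE 0.507, edgeR adjusted p 0.00437). Against PIK3CA mutants it was 2.14 (SE 0.442, edgeR adjusted p 0.0136), a call lost without PIK3CA mutant replicate 2 (adjusted p 0.0513) or 3 (0.0514). The channel-activating proteases Furin and Prss8 and the inhibitors Spint1 and Spint2 did not pass in any comparison tested. Of the 3 tested acid-sensing relatives of the channel (5 in the list), none passed.

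Corticosteroid receptor, enzyme and target genes (12 genes) held 2 higher and 1 lower call in PIK3CA mutants, 3 higher and 2 lower in HER2 mutants and 2 higher and 1 lower in double mutants, each against WT. The shares of all tested genes called in these comparisons were 4.52%, 10.4% and 11.8%. The lower calls were Hsd11b1 in each mutant genotype and Mt2 in HER2 mutants (log2 fold change -1.5, edgeR adjusted p 0.0299), both with a mean log2 CPM under 1. Fkbp5 passed only in HER2 mutants against WT, and Klf9, Zbtb16 and Dusp1 passed in no comparison tested. Tsc22d3, which encodes the glucocorticoid-induced leucine zipper GILZ, had 10.2, 12.9 and 9.69 CPM in WT and 33.1, 33.1, 37.4 and 33.9 in PIK3CA mutant organoids. HER2 mutant organoids had 18.5, 33.8, 35.2 and 46.9 CPM and double mutant organoids 51, 95.2, 46.8, 68.6 and 57.7 CPM. Every mutant sample was above every WT sample. Separation from WT in either direction was seen in 29.5% (PIK3CA), 22.2% (HER2) and 23% (double) of all tested genes, each genotype taken alone. On the log2 scale Tsc22d3 rose by 1.65 from WT to PIK3CA mutants (SE 0.28; edgeR adjusted p, 0.00264). From the same WT samples it rose by 1.62 to HER2 mutants (SE 0.279; edgeR adjusted p, 0.00279) and by 2.55 to double mutants (SE 0.285; edgeR adjusted p, 0.000178). The circadian and glucocorticoid-responsive gene Per1 rose by 1.49 from WT to PIK3CA mutants, with SE 0.379 and edgeR adjusted p 0.0337. To HER2 mutants the rise was 1.69 with SE 0.382 and edgeR adjusted p 0.0124, and to double mutants 1.73 with SE 0.373 and edgeR adjusted p 0.00663. In PIK3CA mutants the Per1 call was lost in each of the 7 fits that left out a replicate, with adjusted p from 0.0527 to 0.167. Per1 in HER2 mutant replicate 1 was 86.3 CPM, within the WT range of 85.4 to 107, and 344 to 387 CPM in the other HER2 mutant replicates. The glucocorticoid receptor gene Nr3c1 did not pass in any comparison tested, with mean levels from 93.8 to 123 CPM. The part of the lower macrophage and fibroblast marker sums of the mutants in these differences was not tested.

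Among genes of ion transport, Fxyd3, a small modulator of the sodium pump, was lower with the HER2 mutation. It had 285, 229 and 280 CPM in WT, 207, 238, 192 and 190 in PIK3CA mutant, 101, 78.2, 57.2 and 55.2 in HER2 mutant and 99.4, 70.2, 83.5, 133 and 122 CPM in double mutant organoids. Samples with and without the HER2 mutation did not overlap. Taken pair by pair, such separation in either direction was seen in 22.2% of all tested genes for HER2 mutants against WT and 23% for double mutants against WT. Against PIK3CA mutants it was 12.5% for HER2 mutants and 7.92% for double mutants. It fell by 1.86 from WT to HER2 mutants (edgeR, SE 0.228, adjusted p 0.000375) and by 1.38 from WT to double mutants (edgeR, SE 0.213, adjusted p 0.000698) on the log2 scale. From PIK3CA mutants it fell by 1.51 to HER2 mutants (edgeR, SE 0.215, adjusted p 0.00159) and by 1.03 to double mutants (edgeR, SE 0.199, adjusted p 0.0305). That last call was lost in 8 of 9 fits with a replicate left out, all but that without double mutant replicate 4. The sodium-glucose cotransporter gene Slc5a1 rose by 1.53 in PIK3CA mutants against WT (SE 0.357, edgeR adjusted p 0.0202), with 27.6 ± 3.58 against 9.52 ± 3.87 CPM (SD, n = 4 and n = 3). That call was lost without WT replicate 2 (adjusted p 0.0803) or 3 (0.142) or PIK3CA mutant replicate 1 (0.0573).

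Among the 7 genes of upstream kinases, Prr5, a subunit of mTORC2, was higher in HER2 mutants than in WT, by 1.92 on the log2 scale (SE 0.469, edgeR adjusted p 0.0178), but not without WT replicate 1 (adjusted p 0.0825) or 3 (0.0792), nor in the fit of only these genotypes (0.111). Pdpk1, which encodes PDK1, was lower in HER2 mutants than in WT, with a log2 difference of -0.32 (edgeR, SE 0.0928, adjusted p 0.0368), a gene chosen after its values were seen. Mtor and Rictor did not pass in any comparison tested. Ndrg2, a relative of the SGK1 substrate gene Ndrg1, had 16.7, 27.4 and 14.1 CPM in WT and 24.2, 25.1, 21.5 and 26.4 in PIK3CA mutant organoids. HER2 mutant organoids had 7.34, 5.71, 6.7 and 10.3 CPM and double mutant organoids 10.2, 9.04, 14.1, 11.5 and 11.2 CPM. Every PIK3CA mutant sample was above every sample with the HER2 mutation. Of all tested genes, 12.5% separated PIK3CA from HER2 mutants and 7.92% separated PIK3CA from double mutants, in either direction. From PIK3CA mutants, Ndrg2 fell by 1.69 to HER2 mutants (edgeR, SE 0.225, adjusted p 0.00109) and by 1.11 to double mutants (edgeR, SE 0.207, adjusted p 0.0256) on the log2 scale. The latter was lost in 8 of 9 fits with a replicate left out, all but that without double mutant replicate 3.

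**Figure D4:**
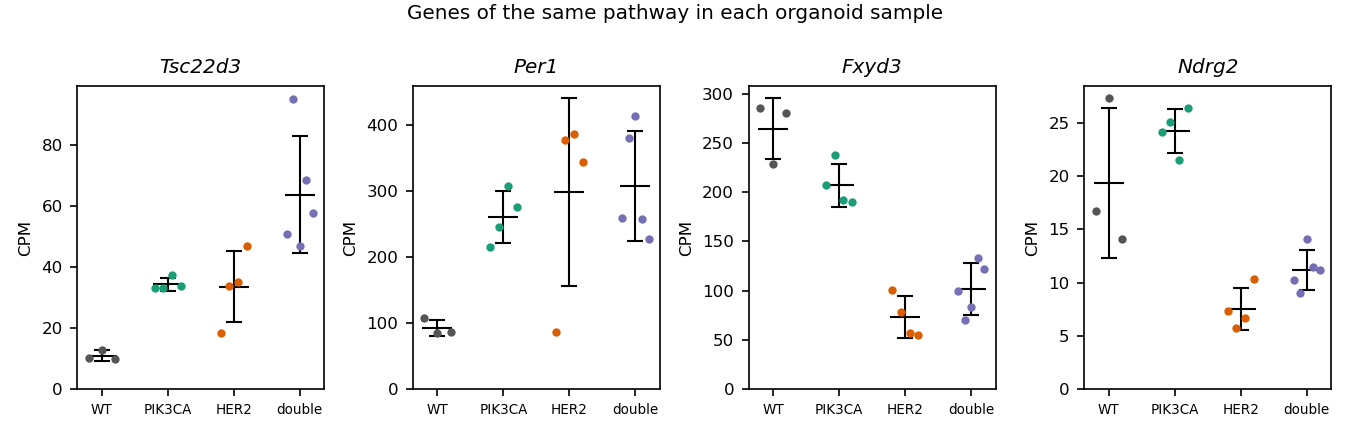
Tsc22d3, Per1, Fxyd3 and Ndrg2 in CPM (vertical axes, from 0) in every organoid sample by genotype, with points for samples and black bars for the mean ± SD. Tsc22d3 was at 9.69 to 12.9 CPM in WT and at least 18.5 CPM in every mutant sample, and Fxyd3 was at most 133 CPM in samples with the HER2 mutation and at least 190 CPM in those without it.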

How the data were processed

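Per the labels' protocols, a column kit gave the RNA and a SMARTer mRNA-seq kit the libraries. The submitters' processing notes name bcl2fastq 2.20, STAR 2.0.4b, Subread, featureCounts 1.4.5, DESeq2 1.33.5 and the build mm10; annotation and strandedness are not given in the sources used here. The authors deposited whole-number read counts per gene, used for all main tests, and a table of normalized signal, each value equal to the count over a median-of-ratios size factor (largest relative difference 5.49e-10), used for limma only. After 287 identical repeated entries were dropped, 55487 genes remained.

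Genes were kept with filterByExpr (24252), scaled with TMM and tested with edgeR 4.0.16 (R 4.3.3) quasi-likelihood tests, two-sided, with 1 model for the 16 samples and a mean per genotype. Benjamini-Hochberg adjustment covered every tested gene. SE is the absolute log2 fold change over the square root of F. CPM uses TMM library sizes, and log2 CPM a prior count of 2. Alternatives were median-of-ratios and upper-quartile scaling, no filter, DESeq2 1.42.0, limma 3.58.1 on log2 of normalized values plus 1, fits of only the genotypes compared, the replicate number as a block, and leaving out each replicate. The count fit was also tested on simulated data. Lengths and positions are from GENCODE M21 (GRCm38) and upstream sequences from RefSeq (GRCm38.p6).

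The 9 genes and the pathway and marker lists were chosen with earlier results of these data known. Of the lists, up to 3 called genes with the largest change and a mean log2 CPM of at least 1 were named in each comparison other than double against HER2 mutants; further genes were chosen after their values were seen. The search for like genes left out predicted-gene and Rik symbols. The 3 counts taken as the detection limit were 0.0468 to 0.0659 CPM of a library, and cover counting error only.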

Additional observations from a re-analysis of the deposited data

Results flagged for a closer look

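In 51 groups of samples (17 genes in 3 mutant genotypes), 2 samples stood apart from the rest of their group; chance flags about 1 in 20 groups. Sgk2 in HER2 mutant replicate 4 had 0.0409 CPM, from 2 counts, with 0 in the other 3 replicates. Per1 in HER2 mutant replicate 1 had 86.3 CPM, with the nearest other replicate at 344 CPM. Hsd11b1, which encodes the enzyme that regenerates active glucocorticoids, had an interaction estimate of 1.68 (SE 0.384, edgeR adjusted p 0.049). Its mean levels were 3.99 CPM in WT, 1.68 in PIK3CA mutant, 0.96 in HER2 mutant and 1.29 in double mutant organoids. By the labels only WT derives from normal tissue, so non-additive mutations and a change shared by all mutants cannot be told apart here. Hsd11b1 was the only list gene of 66 past the threshold for the interaction.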

How the results depend on the processing

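The number of the 7 tested genes past the threshold was 0 in PIK3CA mutants against WT, 0 in HER2 mutants against WT, 2 in double mutants against WT, 0 in double against PIK3CA mutants, 2 in HER2 against PIK3CA mutants and 0 for the interaction. In fits of only the genotypes compared it was 3 for PIK3CA mutants against WT, 4 for double mutants against WT and 1 for HER2 against PIK3CA mutants. DESeq2 gave 2 for HER2 mutants against WT and 1 for the interaction, and limma gave 1 for HER2 mutants against WT and 1 for HER2 against PIK3CA mutants. Leaving out a replicate gave 0 to 2 for HER2 mutants against WT, 0 to 2 for double mutants against WT and 1 to 2 for HER2 against PIK3CA mutants. The lowest correlation of deviations between same-numbered samples was under 0.1 in every pair of genotypes (-0.163 to 0.0711). In double against HER2 mutants the mean correlation was 0.157 for same-numbered and -0.0407 for other samples. In the other pairs of genotypes the mean for same-numbered samples was -0.0522 to 0.0425. These values do not settle whether the replicate numbers of the titles pair the samples. With the replicate number as a block, 1 gene passed in double mutants against WT (not Sgk3, adjusted p 0.0532) and 1 in HER2 against PIK3CA mutants (not Scnn1a, 2.33, adjusted p 0.156). The block also ended the calls of Per1 in PIK3CA mutants (0.0666) and Prr5 in HER2 mutants (0.0687) against WT, and of Ndrg2 (0.128) and Fxyd3 (0.0925) in double against PIK3CA mutants. Scnn1b in PIK3CA mutants against WT had a log2 fold change of -1.40 with DESeq2 and -1.41 in the fit of only these samples, both past the threshold. It passed in none of the other 12 alternatives. The difference of Scnn1b between double and HER2 mutants stayed between -3.63 and -3.01 in 16 alternatives. Some values near 0 reversed when a replicate was left out. Hsd11b2 ran from -0.25 to 0.1 in PIK3CA mutants against WT, -0.31 to 0.03 in double mutants against WT, -0.26 to 0.12 in double against PIK3CA mutants, -0.38 to 0.06 in HER2 against PIK3CA mutants and -0.07 to 0.39 for the interaction. In HER2 against PIK3CA mutants Sgk3 ran from -0.14 to 0.31 and Nr3c2 from -0.53 to 0.39, and the interaction of Nr3c2 from -0.01 to 0.92. Nr3c2 in HER2 against PIK3CA mutants also reversed with the block, to -0.12, and with limma, to -0.26. Leaving out a replicate gave -1.6 to -1.02 for Scnn1b in PIK3CA mutants against WT. The interaction call of Hsd11b1 was lost with no filter on low counts (0 list genes called against 1). The share of all tested genes past the threshold was 2.52 to 18.3% over the alternatives other than leaving out replicates in PIK3CA mutants against WT, 2.37 to 15.5% in HER2 mutants against WT, 5.61 to 17.1% in double mutants against WT, 0.0783 to 2.93% in double against PIK3CA mutants, 2.22 to 9.18% in HER2 against PIK3CA mutants, 0.168 to 7.09% in double against HER2 mutants and 0.144 to 4% for the interaction. The causes were not tested. Depth limits Sgk2, Scnn1g in double mutants and Hsd11b2.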

Other observations

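The next 3 genes were chosen after their values were seen. Aqp4, a water channel gene, had 0.0334 to 0.06 CPM in WT, 0.454 to 3.71 in PIK3CA mutant, 0.0377 to 0.267 in HER2 mutant and 0 to 1.65 CPM in double mutant organoids. From WT the fitted log2 change was 5.33 to PIK3CA mutants (edgeR, SE 1.22, adjusted p 0.0187) and 4.6 to double mutants (edgeR, SE 1.19, adjusted p 0.0198), which is no bound and stands against samples near the detection limit. Wnk4, a kinase gene that regulates sodium and chloride transport, was at 5.52 to 8.72 CPM in WT and at 14.7 to 41.1 CPM in HER2 mutant organoids, with a log2 fold change of 1.80 (SE 0.392, edgeR adjusted p 0.0101). The chloride channel gene Ano1 was higher than in WT in all 3 mutant genotypes, by 1.39 (PIK3CA), 1.08 (HER2) and 1.02 (double) on the log2 scale (edgeR adjusted p 0.00845, 0.0234 and 0.0216), and every mutant sample, at 688 CPM or more, was above every WT sample, at 601 CPM or less. Of all tested genes, 29.5% (PIK3CA), 22.2% (HER2) and 23% (double) were separated from WT in either direction, each genotype taken alone.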
